A study of Oryza sativa with 2 samples.

Results

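The 8 genes described here encode light harvesting chlorophyll proteins of photosystem II in rice (Oryza sativa), and they were taken by locus identifier from a table of 57446 genes. They are CAB1R (LOC_Os09g17740), CAB2R (LOC_Os01g41710), LHCB1 (LOC_Os01g52240), LHCB2 (LOC_Os03g39610), LHCB3 (LOC_Os07g37550), LHCB4 (LOC_Os07g37240), LHCB5 (LOC_Os11g13890) and LHCB6 (LOC_Os04g38410). Messenger RNA was sequenced from young panicles (below 2 cm), in 1 library of the lf2 mutant and 1 of XD1B, the wild type. The series title names LATERAL FLORET 2 as an SNF2 chromatin remodelling factor with a role in axillary meristems of spikelets. The labels used here do not state the lf2 allele, the background of the mutant, the number of plants pooled or the time of day of collection.

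Light harvesting chlorophyll proteins are made in the cytosol from nuclear genes, enter the chloroplast and bind chlorophyll a, chlorophyll b and carotenoids in the thylakoid membrane. The Lhcb1, Lhcb2 and Lhcb3 types build the trimers of the major antenna, and Lhcb4, Lhcb5 and Lhcb6, also called CP29, CP26 and CP24, are single proteins that join these trimers to the photosystem II core. Transcripts of this family are abundant in green tissue and are known to respond to light, the circadian clock and the state of the plastid. A young panicle is largely enclosed by leaf sheaths and is rich in meristem and organ primordia.

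Levels were deposited as FPKM, fragment numbers scaled to gene length and to the fragment total of the library. The totals recovered from the values were 27373727 fragments for lf2 and 29111345 for XD1B. Since each genotype has 1 library, differences could not be checked in replicates, and p-values were not computed. The 95% intervals in parentheses come from recovered fragment numbers and cover counting error only. Of 7 genes fixed as young panicle markers, 6 had at least 1 FPKM in both libraries. The spikelet gene FZP was the other marker, at 0.219 and 0.367 FPKM in lf2 and XD1B.

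All 7 members that were measured, meaning at least 1 FPKM in either library, had a lower deposited level in the lf2 panicle than in the XD1B panicle, and LHCB1 was listed at 0 in both. CAB1R, an Lhcb1-type gene, stood lowest against XD1B, at 0.424 of its level (0.369 to 0.487), and LHCB3 followed at 0.521 (0.483 to 0.562). LHCB2 had the smallest difference, at 0.853 (0.802 to 0.908), and its direction turned when lf2 was rescaled to a median ratio of 1. The summed level of the 8 genes was 176 FPKM in lf2 and 279 FPKM in XD1B, a ratio of 0.632. A lower level was also the common case in these libraries, since 65.2% of the 22150 measured genes were lower in lf2 by any amount. In a library of whole panicle, fewer cells with these transcripts and less of them per cell cannot be told apart.

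The 4 measured major antenna genes were the most abundant members in XD1B, and in lf2 this held except for CAB1R, which stood level with LHCB6. CAB1R was measured at 21.2 FPKM in lf2 and 49.96 FPKM in XD1B, from at least 286 and 717 fragments. CAB2R, the other measured Lhcb1-type gene, was at 32.6 FPKM in lf2 and 46.8 FPKM in XD1B, a ratio of 0.697 (0.645 to 0.752). These 2 genes of the same type stood at similar levels in XD1B, whereas in lf2 CAB1R was well below CAB2R. How fragments shared between copies of this type were assigned is not stated, so this contrast is uncertain. LHCB2 was at 38.0 FPKM in lf2 and 44.6 FPKM in XD1B. LHCB3, whose product is known to sit in trimers with Lhcb1 and Lhcb2, was at 31.1 FPKM in lf2 and 59.6 FPKM in XD1B. In XD1B it was the highest of the 8 genes, above 90.7% of all measured genes, and in lf2 it was above 79.8% of them.

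**Figure D1:**
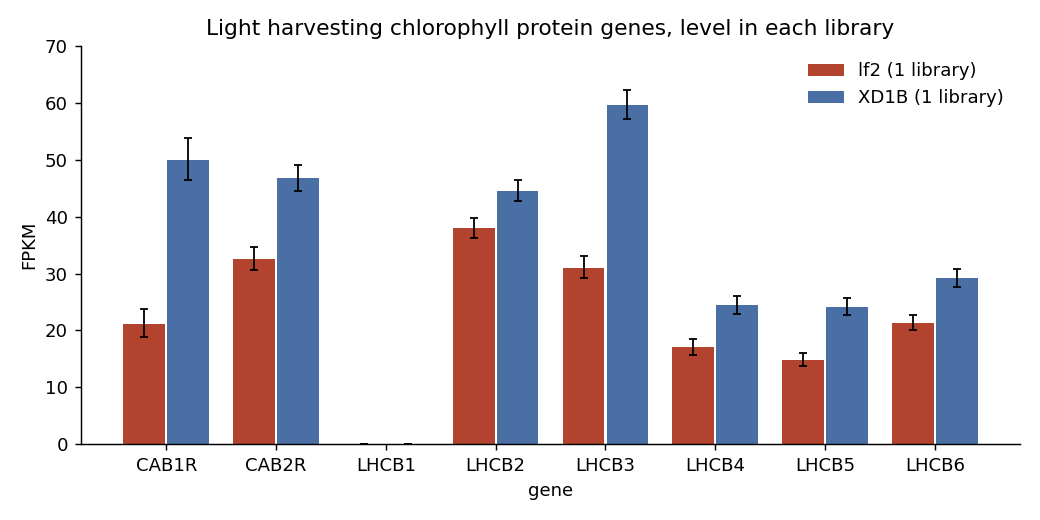
FPKM of the 8 light harvesting genes in the lf2 library (red) and the XD1B library (blue), with 95% Poisson intervals of counting error and no replicates. As deposited, before any rescaling (after which LHCB2 turns), each of the 7 measured genes is lower in lf2, with CAB1R at 21.2 FPKM in lf2 and 49.96 FPKM in XD1B, and LHCB1 is listed at 0 in both.

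The minor antenna genes were mostly lower in level and closer to one another. LHCB4, the CP29 gene, was at 17.0 FPKM in lf2 and 24.4 FPKM in XD1B, a ratio of 0.698 (0.629 to 0.774). LHCB5, the CP26 gene, was at 14.9 FPKM in lf2 and 24.1 FPKM in XD1B, a ratio of 0.617 (0.557 to 0.684). LHCB6, the CP24 gene, was at 21.4 FPKM in lf2 and 29.2 FPKM in XD1B, a ratio of 0.730 (0.671 to 0.794). The ratios of these 3 genes lay within the range that the major antenna genes spanned. Summed, the major antenna genes stood at 123 FPKM in lf2 and 201 FPKM in XD1B, and the minor antenna genes at 53.3 FPKM in lf2 and 77.8 FPKM in XD1B. The major genes were thus 2.31 times the minor ones in lf2 and 2.58 times in XD1B.

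LHCB1 had no fragment in either library, which allows up to 3 fragments per library. It is the third Lhcb1-type locus among the members, and genes of this type are often near-identical copies in plants. The labels used here do not state how the authors assigned fragments that match more than 1 copy, so the split among CAB1R, CAB2R and LHCB1 is uncertain. Summed over these 3 loci the Lhcb1 type stood at 53.8 FPKM in lf2 and 96.8 FPKM in XD1B, a ratio of 0.556. A value of 0 in both libraries was listed for 43.7% of all genes in the table, and among the 14 listed photosystem subunit genes 2 were also listed at 0 in both, one of them OEE3, which encodes a subunit of the oxygen-evolving complex.

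The order of the genes differed between the libraries. In lf2 the order was LHCB2, CAB2R, LHCB3, LHCB6, CAB1R, LHCB4 and LHCB5. Here CAB2R did not differ from LHCB3 beyond counting error, with a ratio of 1.05 (0.963 to 1.14), and LHCB6 did not differ from CAB1R, with a ratio of 1.01 (0.882 to 1.15). In XD1B the order was LHCB3, CAB1R, CAB2R, LHCB2, LHCB6, LHCB4 and LHCB5. There the neighbours CAB1R and CAB2R, CAB2R and LHCB2, and LHCB4 and LHCB5 did not differ beyond counting error. LHCB5 was the lowest measured gene in both libraries, and LHCB2, the highest gene in lf2, stood below LHCB3, CAB1R and CAB2R in XD1B.

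As a share of the summed FPKM, which does not depend on library scaling, CAB1R held 12.0% in lf2 and 17.9% in XD1B. LHCB2 went the other way, with 21.6% in lf2 and 16.0% in XD1B. LHCB3 held 17.6% in lf2 and 21.4% in XD1B. The other 4 measured genes shifted by less than these 3, the largest of these shifts being 1.71 percentage points, for CAB2R.

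**Figure D2:**
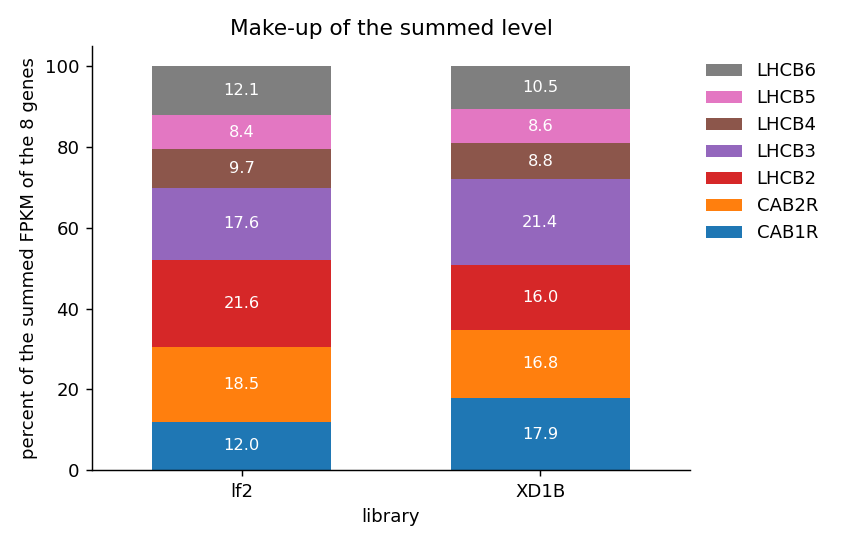
Share of each gene in the summed FPKM of the 8 genes (percent), in the lf2 and the XD1B library. CAB1R takes 12.0% in lf2 and 17.9% in XD1B, and LHCB2 takes 21.6% in lf2 and 16.0% in XD1B.

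Between these 2 libraries the ratios of the 7 measured genes differed from one another by more than counting error. Between 2 genes, the ratio of their lf2 over XD1B ratios is free of gene length and library total. Its exact 95% interval excluded 1 in 16 of 21 pairs. The pairs share the same 7 genes, and no such share was computed for pairs of other genes. The number of pairs therefore cannot be read as particular to the members. LHCB2 over CAB1R gave the widest contrast, 2.01 (1.73 to 2.35). LHCB3 over CAB1R gave 1.23 (1.05 to 1.44), and CAB2R over CAB1R, within the Lhcb1 type, gave 1.64 (1.40 to 1.93). Values for CAB1R and CAB2R depend on the uncertain split of fragments among the Lhcb1-type loci. Among CAB2R, LHCB4 and LHCB6 no pair differed beyond counting error, with LHCB4 over CAB2R at 1.002 (0.880 to 1.14) and LHCB6 over LHCB4 at 1.05 (0.915 to 1.20). LHCB5 could not be told from CAB2R, at 1.13 for CAB2R over LHCB5 (0.993 to 1.28), or from LHCB4. These intervals compare the 2 libraries and say nothing of other panicles.

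Differences were then set against those of all measured genes, on the scale of log2((lf2 FPKM + 1)/(XD1B FPKM + 1)), on which a gene counted as 2-fold lower or higher at -1 or 1. The median of the 7 measured members was -0.51, and that of all measured genes was -0.31. CAB1R, at -1.20, was the 1 member of 7 that was at least 2-fold lower, against 8.23% of all measured genes, while 0 of 7 were at least 2-fold higher, against 15.3%. Only 3.30% of measured genes had a lower log2 ratio than CAB1R, and 11.1% had a lower one than LHCB3, at -0.92. The remaining 5 lay between -0.66 and -0.22, within the bulk of the distribution. Among the 4594 genes whose mean log2 level lay in the range of the measured members, the median was -0.36, with 70.7% lower by any amount. The 2-fold rule was passed downwards by 8.66% and upwards by 9.01% of the genes in that range.

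**Figure D3:**
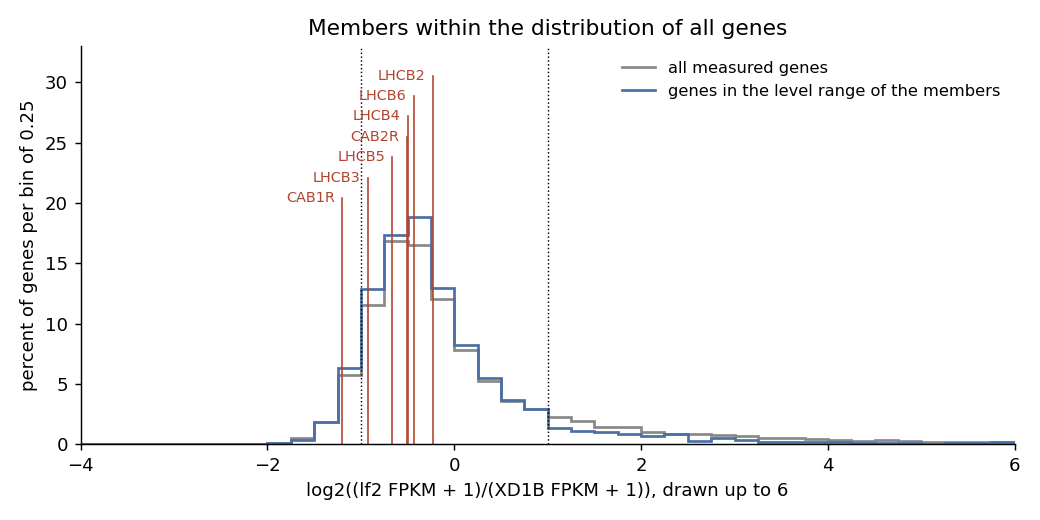
Distribution of the log2 ratio of lf2 over XD1B, as percent of genes per bin, for all 22150 measured genes (grey) and for 4594 genes in the level range of the members (blue), with the 7 measured members as red lines and the 2-fold rule dotted. CAB1R lies in the lower tail at -1.20 and LHCB3 at -0.92, and the other 5 lie between -0.66 and -0.22.

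Because most genes were lower in lf2, the size of each difference depends on the scaling. Multiplying lf2 by 1.32, which brings the median ratio to 1 over the 13597 genes at 5 FPKM or more in both libraries, raised the median log2 ratio of all measured genes by 0.35. The median of the members then was -0.12, and that of all measured genes 0.04. On this scale CAB1R was at 0.558 of XD1B (0.485 to 0.641), LHCB3 at 0.685 (0.635 to 0.739) and LHCB5 at 0.812 (0.732 to 0.899). CAB2R was at 0.916 (0.849 to 0.989), and the intervals of LHCB4 and LHCB6 included 1. LHCB2 turned to a higher level in lf2, at 1.12 (1.05 to 1.20). After rescaling 6 of the 7 members were lower in lf2 by any amount, against 47.4% of all measured genes, and 0 were at least 2-fold lower, against 1.76%. No member was at least 2-fold higher on this scale, against 19.5% of all measured genes.

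**Figure D4:**
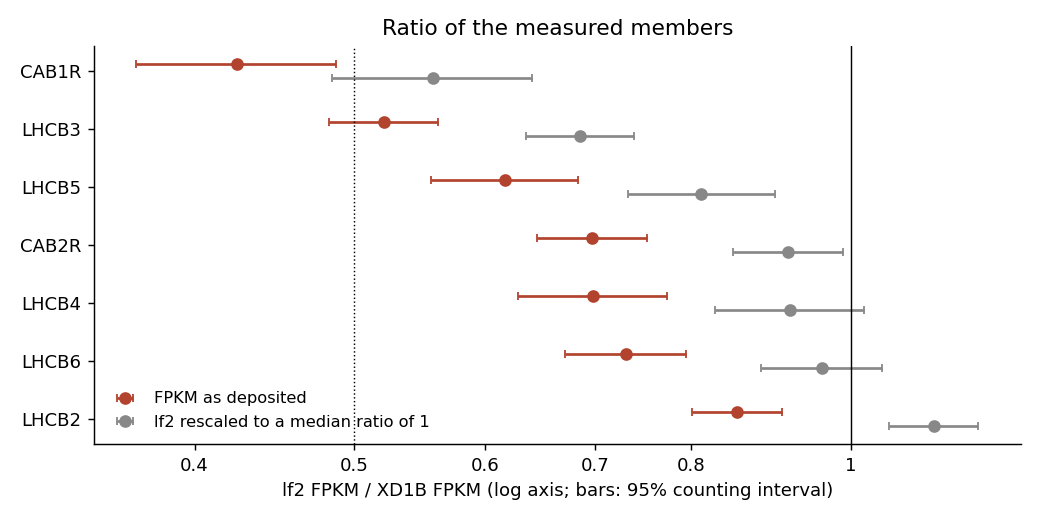
Ratio of lf2 over XD1B FPKM for the 7 measured genes on a log axis, as deposited (red) and after rescaling lf2 to a median ratio of 1 over well expressed genes (grey), with 95% counting intervals. As deposited all 7 lie below 1, whereas after rescaling LHCB2 lies above 1 at 1.12, the intervals of LHCB4 and LHCB6 include 1, and CAB1R is at 0.558.

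Other genes of the light harvesting family were described by a list of 9 further loci, of which 6 were listed for the antenna of photosystem I. The list is a selection and not the whole family, and not every locus in it was listed as an antenna gene. No locus of this list was matched in the reference gene table, so their identity rests on the list alone. Among the 6 measured in the list, 5 were lower in lf2 and 1 was higher, where 65.2% of all measured genes were lower. None of the 6 (0) passed the 2-fold rule, against 8.23% of all measured genes downwards and 15.3% upwards, and the median log2 ratio was -0.39. The 6 photosystem I antenna loci summed to 74.6 FPKM in lf2 and 96.9 FPKM in XD1B, and 4 of them were measured. The highest of these was at 29.9 FPKM in lf2 and 38.5 FPKM in XD1B, below LHCB2 in both libraries. After rescaling the median of this list was -0.0088, so its direction is not fixed by these data.

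Of the 14 nuclear genes for photosystem subunits, which hold the reaction centres that the antenna feeds, 12 were measured, with 5 higher and 7 lower in lf2, a split near that of all measured genes, of which 65.2% were lower. The 2-fold rule was passed by 0 of the 12, against 8.23% of all measured genes downwards and 15.3% upwards. The median log2 ratio was -0.21 and turned to 0.18 after rescaling. PSAH, a photosystem I subunit gene, was at 13.7 FPKM in lf2 and 17.4 FPKM in XD1B. Only 2 of the 14 listed genes were matched in the reference gene table, and 1 of these was measured.

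Chlorophyll synthesis genes supply the pigment that these proteins need in order to fold and stay in the membrane. All 13 listed were measured, and 10 were lower in lf2. That compares with 65.2% of all measured genes. The 2-fold rule was passed downwards by 3 of the 13, against 8.23% of all measured genes, and upwards by 1, against 15.3%, and the list median was -0.54 on the log2 scale. DVR, the divinyl reductase gene and one of the 3 that passed downwards, was at 1.18 FPKM in lf2 and 3.42 FPKM in XD1B. CHLI, a magnesium chelatase subunit gene that also passed, was at 4.78 FPKM in lf2 and 10.6 FPKM in XD1B. CHLD, another subunit gene of that enzyme, was at 4.73 FPKM in lf2 and 9.72 FPKM in XD1B and did not pass, at a log2 ratio of -0.90. PORA, a light-dependent protochlorophyllide reductase gene, was the 1 gene at least 2-fold higher, with a ratio of 2.16 (2.06 to 2.27), whereas PORB, for the same step, was at 10.6 FPKM in lf2 and 13.9 FPKM in XD1B. After rescaling the median of this list was -0.20 and 0 genes were at least 2-fold lower, against 1.76% of all measured genes.

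Chlorophyll breakdown genes went against the members. All 6 listed were higher in lf2, where 65.2% of all measured genes were lower. Of these 6, 4 passed the 2-fold rule upwards, against 15.3% of all measured genes. Like the other lists, this one was chosen with earlier results of these data known. Their median log2 ratio was 2.11 as deposited and 2.49 after rescaling. SGR, the stay-green gene whose product starts chlorophyll removal and is needed in rice for loss of the light harvesting complexes in senescing leaves, stood at 133 FPKM in lf2 and 1.297 FPKM in XD1B, a ratio of 103 (79.3 to 135). NYC1, a chlorophyll b reductase gene known in rice for breakdown of the major antenna, stood at 84.9 FPKM in lf2 and 10.4 FPKM in XD1B, a ratio of 8.20 (7.53 to 8.94). NOL, for the partner reductase of NYC1, had a ratio of 1.11 (0.895 to 1.36), so as deposited it did not differ beyond counting error, and it was at 1.45 after rescaling. RCCR1, for a later step of the pathway, stood at 11.2 FPKM in lf2 and 3.78 FPKM in XD1B. Summed, the 6 genes stood at 300.03 FPKM in lf2, beside 176 FPKM for the 8 light harvesting genes. In XD1B the sums were 43.0 FPKM and 279 FPKM. These are RNA levels of lists of unlike size, and a link between these genes and the members was not tested.

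**Figure D5:**
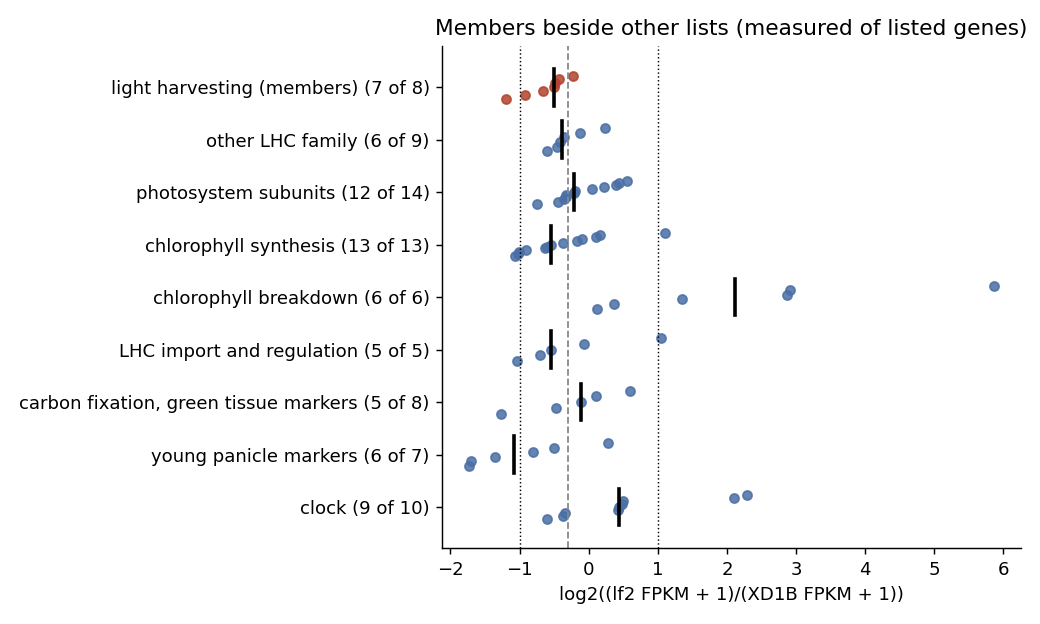
Log2 ratio of lf2 over XD1B for the measured genes of each list, with the list median as a black bar, the median of all measured genes dashed and the 2-fold rule dotted. The 7 measured members have a median of -0.51 and all lie below 0 as deposited (LHCB2 turns to 0.16 after rescaling), whereas the 6 chlorophyll breakdown genes have a median of 2.11 and all lie above 0.

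Of 5 genes listed for import and regulation of the antenna, 4 were lower in lf2, against 65.2% of all measured genes. GLK1 and GLK2 encode transcription factors that activate light harvesting and chlorophyll synthesis genes. GLK1 was at 5.62 FPKM in lf2 and 5.92 FPKM in XD1B, a ratio of 0.948 (0.810 to 1.11) that turned to 1.25 after rescaling. GLK2 was at 10.8 FPKM in lf2 and 16.2 FPKM in XD1B, a ratio of 0.668 (0.537 to 0.828). After rescaling the interval of GLK2 included 1, at 0.878 (0.706 to 1.09). That interval rests on at least 140 fragments in lf2 and 223 in XD1B, and may be wider than counting error. Over the 5 genes, all measured, 1 passed the 2-fold rule upwards and 1 downwards, against 15.3% and 8.23% of all measured genes. Neither was GLK1 or GLK2, and the median log2 ratio of the 5 was -0.54. The rescaled median was -0.18.

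The young panicle markers had a lower median than the light harvesting genes, a difference that was not tested. The 6 measured markers had a median log2 ratio of -1.08, and of -0.69 on the rescaled values, and 5 of them were lower in lf2, where 65.2% of all measured genes were lower. The 2-fold rule was passed downwards by 3 of the 6, against 8.23% of all measured genes. On the rescaled values 2 passed it downwards, against 1.76%. MADS1, a floret identity gene, was at 73.2 FPKM in lf2 and 190 FPKM in XD1B. DL, a carpel and midrib gene, was at 11.4 FPKM in lf2 and 40.3 FPKM in XD1B, and G1, a sterile lemma gene, at 5.63 FPKM in lf2 and 20.5 FPKM in XD1B. The meristem genes OSH15 and OSH1 had log2 ratios of -0.81 and -0.50, and the axillary meristem gene LAX1 was at 4.51 FPKM in lf2 and 3.54 FPKM in XD1B. The part of panicle stage and organ make-up in the levels of the light harvesting genes was not tested.

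Green tissue and time of day were looked at because the family is known to follow both. Of 8 carbon fixation genes fixed as markers of green tissue, the summed level was 19.0 FPKM in lf2 and 25.4 FPKM in XD1B, the highest gene was at 7.00 FPKM in lf2 and 7.80 FPKM in XD1B, 3 were below 1 FPKM in each library, and 0 were listed at 0. Of the 5 measured, 2 were higher and 3 lower in lf2, where 65.2% of all measured genes were lower. Their median log2 ratio was -0.11 and turned to 0.24 after rescaling. The 2-fold rule was passed downwards by 1, against 8.23% of all measured genes, and upwards by 0, against 15.3%. RCA, for Rubisco activase, was that 1 gene, with a ratio of 0.338 (0.267 to 0.424), below that of CAB1R. On the log2 scale the measured markers ranged from -1.28, for RCA, to 0.60. Of 10 clock genes 9 were measured, with 6 higher and 3 lower in lf2, where 65.2% of all measured genes were lower, and a median log2 ratio of 0.43. At least 2-fold higher were 2 of the 9, against 15.3% of all measured genes, and 0 were 2-fold lower, against 8.23%. LHY, a morning gene, stood at 204 FPKM in lf2 and 259 FPKM in XD1B, a difference that turned to a ratio of 1.04 after rescaling, and PRR95 had a ratio of 4.93 (4.40 to 5.54). PRR1, an evening gene, had a ratio of 0.630 (0.541 to 0.731). The clock gene GI went the other way, at 1.41 (1.35 to 1.47), and at 1.85 after rescaling. The part of green tissue content and of collection time in the levels of the light harvesting genes was not tested.

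Among the measured genes of all these lists other than the members, the log2 ratio closest to the median of the members, over the 2 libraries, was that of OSH1, at -0.50, followed by GLK2, at -0.54, and by a chlorophyll synthesis locus, also at -0.54. Such values were common, since 3105 of the 22150 measured genes lay within 0.1 of that median.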

How the data were processed

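The authors deposited FPKM values in 1 column per library, per the file headers. No label or header names the aligner, counter, build, annotation or filters. Library totals were recovered from the smallest FPKM values, which are 1 fragment over a whole-base length. Each gene then got the smallest length that gives whole fragment numbers in both libraries, within 0.0002 fragments plus 3e-07 of the number, which was found for 100% of measured genes. These numbers are lower bounds, so the intervals (exact Clopper-Pearson for ratios, Poisson for levels, conditional odds ratio between genes, all 95%) are at least as wide as counting error. For CAB1R the smallest length was 493 bases.

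The log2 ratio used a pseudocount of 1, which understates low genes, and only genes that reached FPKM 1 in either library were measured. The 2-fold rule is a rule of size. Alternatives were pseudocounts of 0.1 and 5, no filter, a filter at 5, rescaling to a median ratio of 1 or to a sum of 1000000, and summing the Lhcb1-type genes. The members and lists were chosen with earlier results of these data known. All 8 members are reported. From each other list the rule names up to 4 measured genes with the largest difference and GLK1, GLK2, PORA, PORB, CAO1 and RCA. Where members of a list had no match in the reference gene table (assembly ASM3414082v1), they were counted and not named. CHLD, FZP, GI, LAX1, LHY, NOL, OEE3 and PSAH were named after their values were seen. Of 72 genes in 8 other lists, 33 were matched by symbol, chromosome and position or order along it, as were 4 members. The names of the other members come from the description of the gene set. Promoter motifs, planned at first, were not analysed here. The procedure was tested on simulated data. The software was scipy 1.17.1, numpy 2.4.6, matplotlib 3.10.9 and pandas 2.3.3 under Python 3.11.15.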

Additional observations from a re-analysis of the deposited data

How the results depend on the processing

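No paired analysis was possible because each genotype has 1 library, and no replicate could be left out. Pseudocounts of 0.1 and 5 and a sum of 1000000 moved the log2 ratio of no measured member beyond its counting interval. Rescaling to a median ratio of 1 moved 6 and turned LHCB2 to 0.16. It gave -0.12 for the median of the members, -0.27 for their sum, -0.45 for the sum of the Lhcb1 type and 0 members at least 2-fold lower. Summing the Lhcb1-type genes into 1 feature also left 0 at least 2-fold lower. List medians after that rescaling were -0.0088 for the other light harvesting genes, 0.18 for photosystem subunits, -0.20 for chlorophyll synthesis, 2.49 for chlorophyll breakdown, -0.18 for import and regulation, 0.24 for carbon fixation, -0.69 for panicle markers and 0.83 for the clock. The breakdown median was 1.57 with a pseudocount of 5. The median of all genes was 0.040 after rescaling, -0.26 with a sum of 1000000, -0.35 and -0.19 with pseudocounts of 0.1 and 5, 0 without a filter and -0.34 at FPKM of at least 5. Genes at least 2-fold lower numbered 389 after rescaling and 2978 and 648 with pseudocounts of 0.1 and 5, and genes at least 2-fold higher 2183 with 5. All follow from how these settings are built. Chosen after seeing the data, the level range of the members gave a median of -0.36, with 414 genes higher and 398 lower, and keeping only list members matched in the reference left 1 measured carbon fixation gene, RCA, at -1.28. Among the members only LHCB1 was not measured. Whether depth or the assignment of fragments shared between copies lies behind this was not tested.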
